A study of Mus musculus with 12 samples.

Results

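The genes described here encode the receptor chains through which cells bind IL-5, IL-3 and GM-CSF: Il5ra, Csf2rb, Csf2rb2, Csf2ra and Il3ra. They were chosen by name, as every probe whose gene name in the scanner files is one of these symbols, which gave 5 of 34650 gene names and 7 of 55681 probes. All 5 genes and all 7 probes passed the filter on dim probes, and each probe was well above background on all 12 arrays. The choice was made with measured values in view, because Il5ra had been seen among the largest rises with IL-4 in wild-type cells. For these genes the IL-4 response of wild-type cells, the difference between genotypes in the presence of IL-4 and the difference between the IL-4 responses are therefore given as descriptions, with no test. The IL-4 response of knockout cells and the difference between the genotypes without IL-4 were tested. The latter shares the wild-type control arrays with the described wild-type response. Both tested comparisons use the same knockout control arrays, with opposite sign, so their results are not independent.

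Receptors for IL-5, IL-3 and GM-CSF are built from an alpha chain that binds a single cytokine and a beta chain that carries the signal. Il5ra, Il3ra and Csf2ra encode the alpha chains for IL-5, IL-3 and GM-CSF, and Csf2rb encodes the common beta chain that all of them use. Mice have a second beta chain gene, Csf2rb2, next to Csf2rb, whose product serves the IL-3 receptor alone. The beta chains recruit the kinase JAK2, which activates STAT5. IL-5 is best known as the growth and survival factor of eosinophils, and in the mouse it also acts on B-1 cells and on activated B cells, where it promotes proliferation and antibody secretion.

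Gene expression was measured on 1-colour arrays in splenic B cells of female BALB/c mice aged 9 weeks, purified by negative selection. In every group the cells were cultured for 4 days with anti-CD40 antibody at 10 µg/ml plus LPS at 2 µg/ml, with fresh medium on day 3, so the controls too were activated cells. The groups were wild type without IL-4, wild type with IL-4 (25 ng/ml), STAT6 knockout without IL-4 and STAT6 knockout with the same dose, with 3 arrays each. STAT6 is the transcription factor through which the IL-4 receptor acts on most of its target genes. The labels do not say whether the samples of a group came from separate animals, so p-values may measure only technical spread, and they do not give the deleted part of Stat6. The difference between knockout and wild-type Stat6 was -1.94 on the log2 scale in controls (adjusted p = 1.03e-06, limma) and -1.94 with IL-4 (adjusted p = 1.84e-08).

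Arrays had 40.7% to 44.0% of 59305 non-control spots well above background, none saturated, and replicates correlated at r = 0.994 to 0.998 across genes, which are not independent. Levels below are relative signals, the background-subtracted intensity of a probe divided by the 75th percentile of its array, and they compare arrays, not probes. The lowest relative signal well above background was 0.0672 to 0.0979 by array. The 6 wild-type arrays were on slide 1 together with 2 knockout controls (1 and 2), whereas knockout control 3 was on slide 2 with the knockout IL-4 arrays. With 3 arrays per group, the number of arrays limits the precision of every value. B cell markers were well above background on all 12 arrays for 9 of 9 genes, with a summed relative signal of 1654 to 1958. In wild type the sum was 1851 to 1873 in controls and 1898 to 1958 with IL-4. Without Cd79b these ranges were 1522 to 1551 and 1401 to 1445, so the direction depended on that gene.

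The array carries 60-base probes, of which 30 bases are shown for each to identify what was measured, 5′ to 3′, with positions on mm9 as the files give them. Il5ra, Csf2ra and Il3ra have a single probe, and the beta chain genes have 2 each. The Il5ra probe lies on the minus strand at chr6:106660378-106660437, the Csf2ra probe on the minus strand at chr19:61300336-61300395, and the Il3ra probe on the plus strand at chr14:15187898-15187957. Whether the probes lie in coding or untranslated sequence is not given in the sources used here. The RefSeq accessions of all 5 genes matched the same symbols in the reference annotation.
Il5ra: gcaggaacaacaatatgaactacccagcaa
Csf2ra: tcataaaatccaacgtgccttcatgatcaa
Il3ra: agctcttgaagactgcgaggtgacgcctgt

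The beta chain probes are shown because the genes are close copies. Csf2rb probe 1 (plus strand, chr15:78181168-78181227) and Csf2rb2 probe 1 (minus strand, chr15:78113126-78113185) share a stretch in which 27 of 30 bases are identical, bases 30 to 59 of the former and 12 to 41 of the latter, with the differing bases in capitals.
Csf2rb probe 1: ggcagatcaaAtgtCccttggtctCtgttc
Csf2rb2 probe 1: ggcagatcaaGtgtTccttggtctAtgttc
The longest identical run in that stretch is 10 bases. Whether either probe also reads the other gene was not tested, so values of these genes by probe 1 are uncertain to that extent. Csf2rb probe 2 (chr15:78179504-78179563) and Csf2rb2 probe 2 (chr15:78114097-78114156) share no such stretch, with at most 15 of 30 bases identical between a beta chain probe pair that includes a probe 2.
Csf2rb probe 2: ctatcagcccatgccccaggcgccagccat
Csf2rb2 probe 2: taaaattgggcaggctcttgttgctccaag

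Il5ra, the chain that makes a cell able to bind IL-5, was far higher in the wild-type cells given IL-4 than in the other 3 groups. Its relative signal was 1.50, 1.73 and 1.51 in wild-type controls and 112, 109 and 108 in wild-type cells with IL-4. In knockout cells it was 1.37, 1.37 and 1.20 in controls and 1.29, 1.39 and 1.08 with IL-4. The 3 wild-type IL-4 arrays overlapped with no other array, and the 2 knockout groups overlapped each other. As unscaled intensity, the wild-type IL-4 arrays read 37239 to 38864 and the other 9 arrays 341 to 562. In bulk cultures, more cells with the transcript and more transcript per cell cannot be told apart.

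**Figure D1:**
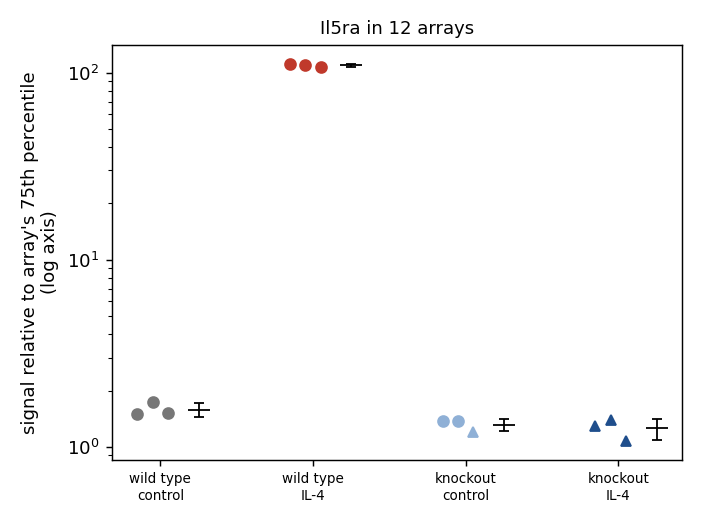
Relative signal of the Il5ra probe on each of 12 arrays (log axis; signal divided by the array's 75th percentile), by group, with mean ± SD beside the points; circles are slide 1 and triangles slide 2. The wild-type IL-4 arrays lie at 108 to 112, and all other arrays lie between 1.08 and 1.73.

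The described log2 change of Il5ra with IL-4 in wild-type cells was 6.12 ± 0.10 (SE, 3 arrays per group), or 69.3-fold. In knockout cells the tested change was -0.07 ± 0.10, with a 95% interval of -0.29 to 0.14 (limma, adjusted p = 0.572). The described difference between the responses was 6.19 ± 0.14, and knockout cells with IL-4 were 87.8-fold below wild-type cells with IL-4. Without IL-4, the knockout arrays were all below the wild-type arrays, by -0.27 ± 0.10, which did not pass the test (adjusted p = 0.0954). That difference passed when arrays were scaled by their median (-0.45, adjusted p = 0.0291) and when knockout IL-4 array 3 was left out (adjusted p = 0.0373). Median scaling moved the median difference of all genes in this comparison to -0.22, from -0.04, and 33.8% of all genes were then called. By mean level the order was wild type with IL-4, wild-type control, knockout control and knockout with IL-4, and the last 2 overlapped.

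The promoter of Il5ra is shown because the described change of its transcript was the largest of the 5 genes. The RefSeq sequence (GRCm38.p6, minus strand, chr6:106748988-106749287) covers 250 bases before and 50 bases from the start site, and capitals mark a match to TTCNNNNGAA, a spacing known for STAT6 sites.
Il5ra promoter: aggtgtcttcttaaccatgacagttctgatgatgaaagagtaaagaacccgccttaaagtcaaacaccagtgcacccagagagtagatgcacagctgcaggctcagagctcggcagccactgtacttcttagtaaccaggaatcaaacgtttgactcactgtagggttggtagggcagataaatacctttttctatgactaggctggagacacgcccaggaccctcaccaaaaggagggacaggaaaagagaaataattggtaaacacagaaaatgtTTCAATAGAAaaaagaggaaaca
The match, TTCAATAGAA, spans positions 28 to 37 counted from the start site as 1. On either strand this motif occurs in 6.95% of 32851 promoters of the same length. Of the other motifs searched on both strands, TTCNNNGAA (8.3% of promoters), ATGCAAAT (1.74%) and GAGGAAGT (3.2%) had no match in the Il5ra window. In the Csf2rb2 window (minus strand, chr15:78305672-78305971), TTCTGAGAA matched TTCNNNGAA at -15 to -7, and ACTTCCTC, the other strand of GAGGAAGT, lay at 28 to 35. No motif matched in the Csf2ra and Il3ra windows. No promoter sequence was available for Csf2rb, so it was not searched. The share of G and C was 44.3% for Il5ra, 55.0% for Csf2rb2, 65.3% for Csf2ra and 74.3% for Il3ra, against a median of 52.7% over all promoters. A match is a description of letters and not a site shown to be bound.

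Csf2rb, the common beta chain shared by the receptors for all these cytokines, was at its lowest where Il5ra was at its highest. Probe 1 gave relative signals of 2.62, 2.85 and 2.79 in wild-type controls and 1.58, 1.56 and 1.41 in wild-type cells with IL-4. Knockout cells gave 3.10, 2.77 and 2.55 in controls and 2.33, 2.47 and 2.35 with IL-4. The wild-type IL-4 arrays were below all others, the controls of the genotypes overlapped, and the knockout IL-4 arrays lay just below the knockout controls. Probe 2, dimmer, gave 0.280, 0.252 and 0.302, then 0.147, 0.191 and 0.157 in wild type, and 0.265, 0.251 and 0.302, then 0.237, 0.293 and 0.227 in knockout. By this probe, too, the wild-type IL-4 arrays were below all others, whereas the knockout groups overlapped.

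The described wild-type change of Csf2rb was -0.86 ± 0.07 by probe 1, or 1.82-fold lower, and -0.76 by probe 2. In knockout cells Csf2rb fell by 0.23 ± 0.07 on the log2 scale by probe 1 (limma, adjusted p = 0.0295), while probe 2 gave -0.12 (adjusted p over probes 0.507). The probe 1 call is a narrow one. It was lost with median scaling (-0.08, adjusted p = 0.532), with slide as a block (-0.10, adjusted p = 0.424) and without knockout control 1 (-0.16, adjusted p = 0.0889) or 2, or knockout IL-4 array 1 or 3. Between the genotypes without IL-4 the difference was 0.02 ± 0.07, with a 95% interval of -0.14 to 0.19 (adjusted p = 0.855).

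Csf2rb2, the beta chain of the IL-3 receptor in mice, gave different pictures by its 2 probes. Probe 1 read 0.382, 0.385 and 0.368 in wild-type controls and 0.469, 0.429 and 0.488 with IL-4. In knockout cells it read 0.618, 0.590 and 0.647 in controls and 0.402, 0.364 and 0.539 with IL-4. By probe 1 the knockout controls were above every other array, and the knockout IL-4 arrays overlapped both wild-type groups.

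Probe 2 of Csf2rb2 read 0.235, 0.256 and 0.287 in wild-type controls and 0.161, 0.164 and 0.153 with IL-4. In knockout cells it read 0.304, 0.277 and 0.239 in controls and 0.236, 0.226 and 0.230 with IL-4. Here the wild-type IL-4 arrays were the lowest, as for both probes of Csf2rb, and the controls of the genotypes overlapped.

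In knockout cells Csf2rb2 fell with IL-4 by 0.53 ± 0.12 on the log2 scale by probe 1, its brighter probe (limma, adjusted p = 0.00601), and probe 2 gave -0.24 (adjusted p over probes 0.0666). Knockout controls were 1.63-fold above wild-type controls by probe 1 (0.71 ± 0.12, adjusted p = 0.00963), a difference that probe 2 did not show (0.07, adjusted p over probes 0.622). The described wild-type change was 0.29 ± 0.12 by probe 1 and -0.70 by probe 2. With the probes averaged it was -0.21, and in the authors' deposited normalised table -0.05, so the direction of the wild-type change depends on the probe.

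**Figure D2:**
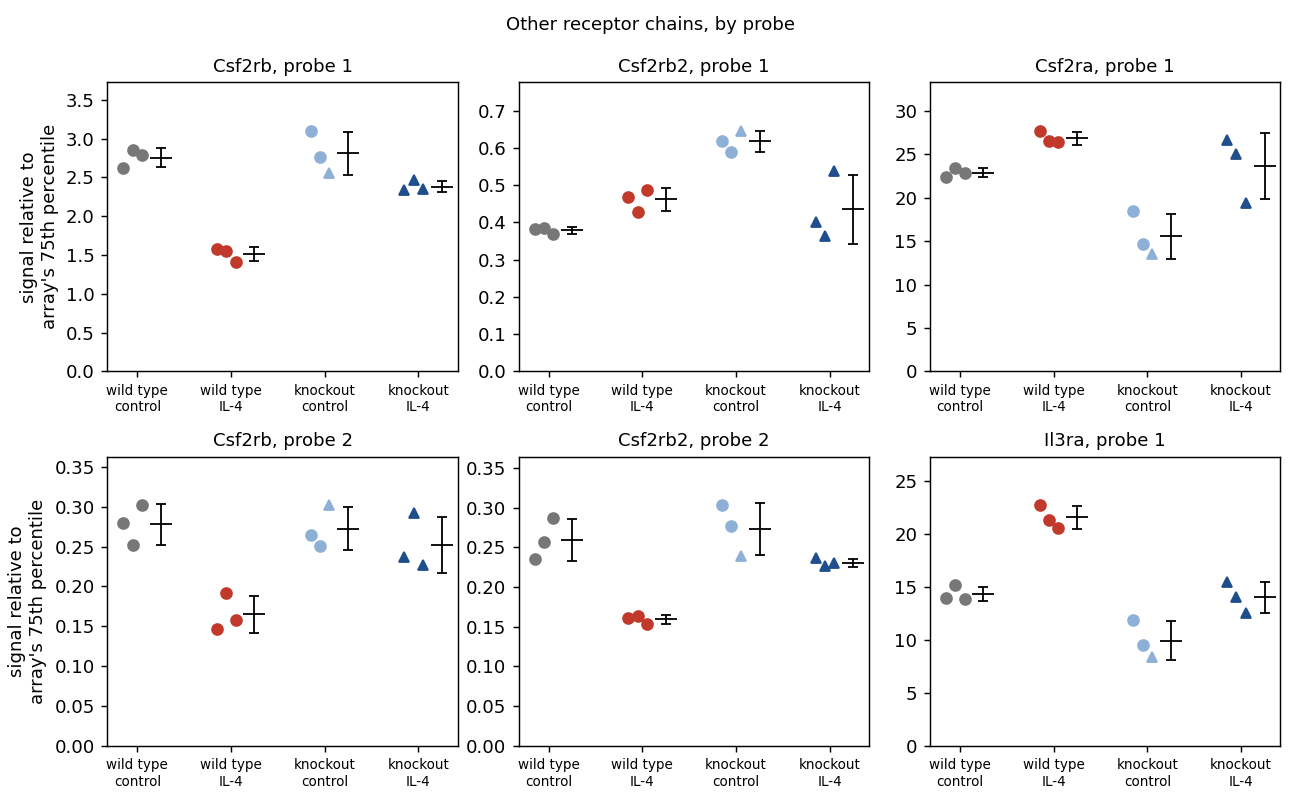
Relative signal (signal divided by the array's 75th percentile, axes from 0) of the 6 probes of Csf2rb, Csf2rb2, Csf2ra and Il3ra on each array, with mean ± SD beside the points; circles are slide 1 and triangles slide 2. Both Csf2rb probes are lowest in wild-type cells with IL-4 (1.41 to 1.58 and 0.147 to 0.191), the Csf2rb2 probes differ in pattern, and Csf2ra and Il3ra are lowest in knockout controls (13.5 to 18.5 and 8.40 to 11.9).

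Csf2ra, the alpha chain that binds GM-CSF, was higher with IL-4 in both genotypes. Its relative signal was 22.4, 23.4 and 22.8 in wild-type controls and 27.7, 26.5 and 26.4 with IL-4. In knockout cells it was 18.5, 14.6 and 13.5 in controls and 26.6, 25.0 and 19.4 with IL-4. The knockout controls were below every other array, and the knockout IL-4 arrays overlapped both wild-type groups.

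In knockout cells Csf2ra rose 1.52-fold with IL-4 (0.61 ± 0.13 on the log2 scale, limma, adjusted p = 0.00380). Within slide 2, where knockout control 3 is the only control, the change was 0.80. The described wild-type change was 0.23 ± 0.13. Without IL-4, Csf2ra was 1.49-fold lower in knockout than in wild-type cells (-0.57 ± 0.13, adjusted p = 0.0263).

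Il3ra, the alpha chain that binds IL-3, followed Csf2ra. It gave 13.9, 15.1 and 13.9 in wild-type controls and 22.7, 21.3 and 20.6 with IL-4. In knockout cells it gave 11.9, 9.48 and 8.40 in controls and 15.4, 14.0 and 12.5 with IL-4. The wild-type IL-4 arrays were the highest, the knockout controls the lowest, and the remaining 2 groups overlapped. In both knockout groups array 3 was the lowest of its group for Csf2ra and for Il3ra alike.

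Il3ra rose 1.42-fold with IL-4 in knockout cells (0.51 ± 0.12, limma, adjusted p = 0.00683), and by 0.73 within slide 2. The described wild-type change was 0.59 ± 0.12, or 1.50-fold, and the described difference between the responses was 0.08 ± 0.17. Without IL-4 it was 1.46-fold lower in knockout cells (-0.54 ± 0.12, adjusted p = 0.0249). The calls without IL-4 were lost for both alpha chains with slide as a block (Csf2ra -0.48, adjusted p = 0.0960; Il3ra -0.43, adjusted p = 0.0835), and without any single wild-type control or without knockout control 2 or 3. Leaving out knockout control 3 gave the same values as the block, -0.48 and -0.43.

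Over the 5 genes in knockout cells, Csf2ra and Il3ra rose with IL-4, Csf2rb and Csf2rb2 fell, and Il5ra did not pass the test. That is 4 of 5 called, against 42.2% of all 16497 genes tested at an adjusted p under 0.05, of which 27.5% were higher and 14.7% lower. The Csf2rb call was lost in 10 of 25 alternatives, and neither beta chain gene was called by probe 2. The median change over all genes was 0.05 on the log2 scale, and 0.20 with median scaling, which also raised the share of higher genes among those called from 65.1% to 82.2%. Between the genotypes without IL-4, Csf2rb2 was higher and Csf2ra and Il3ra lower in knockout cells, 3 of 5 called against 11.7% of all genes (4.73% higher, 6.96% lower). The share of higher genes among those called was 40.4% there, and 8.37% with median scaling. The arrays compared did not overlap for 4 of 5 genes in knockout cells with and without IL-4 (46.5% of all genes), and for 4 of 5 between the genotypes without IL-4 (38.3%). In the described wild-type response the arrays of all 5 genes were apart (69.2% of all genes), and 57.1% of all genes were called. In the described comparison of the genotypes with IL-4 they were apart for 3 of 5 (58.7%), and 51.1% were called. For the described difference between the responses, 44.8% of all genes were called, and nothing is read from the described comparisons.

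**Figure D3:**
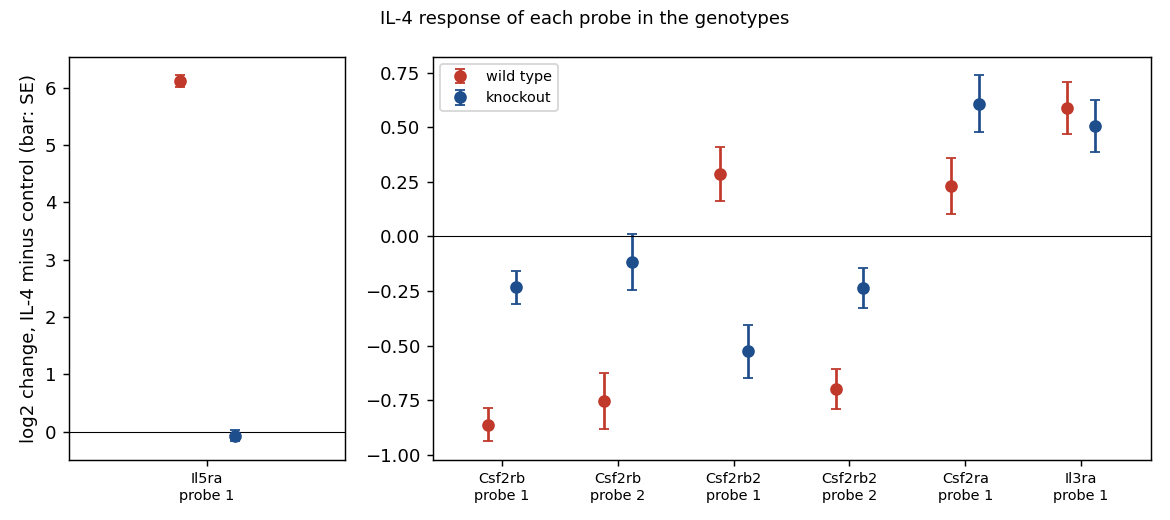
Log2 change with IL-4 (IL-4 minus control, points) and its SE (bars) for each of the 7 probes in wild-type and knockout cells, with Il5ra on an axis of its own. Il5ra is at 6.12 in wild type and -0.07 in knockout; both Csf2rb probes are lower in wild type (-0.86 and -0.76), the Csf2rb2 probes point in opposite directions in wild type (0.29 and -0.70), and Csf2ra and Il3ra are above 0 in both genotypes.

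Of the cytokines that bind these receptors, Csf2, which encodes GM-CSF, was the only transcript tested. It was at least 34.6-fold lower with IL-4 in wild-type cells, where it was not well above background (limma, adjusted p = 5.46e-11). In knockout cells Csf2 rose by 0.67 ± 0.10 on the log2 scale (adjusted p = 0.000493), and without IL-4 its difference between knockout and wild type was -0.61 (adjusted p = 0.00833). Il5 was well above background on 0 arrays and Il3 on at most 1, so neither was tested.

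The remaining genes of the pathway are given as lists, whose counts read against the shares of all genes called. These were 26.4% higher and 30.8% lower with IL-4 in wild type, 27.5% higher and 14.7% lower in knockout cells, and 4.73% higher and 6.96% lower between the genotypes without IL-4. Among 18 kinases and adaptors, IL-4 was followed by 7 rises and 5 falls in wild-type cells, whereas 4 rose and 2 fell in knockout cells, and 0 rose and 4 fell in knockout against wild type without IL-4. Their median changes were 0.13, 0.02 and -0.09, against -0.04, 0.05 and -0.04 over all genes. Syk, a kinase of antigen receptor signalling, fell by 2.98 in wild type and by 0.56 in knockout cells on the log2 scale. Lyn, a Src family kinase that binds the common beta chain, fell by 1.11 in wild type. The phosphatase gene Ptpn6 and the kinase gene Btk fell by 0.93 and 0.59 in wild type, and the lipid phosphatase gene Inpp5d rose by 0.52. Jak2, the kinase bound to the beta chains, rose by 0.30 in wild type and 0.33 in knockout cells, and Ptpn11, a phosphatase, rose by 0.37 in knockout cells.

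Of 4 STAT genes, 3 rose with IL-4 in wild-type cells (26.4% of all genes) and 2 in knockout cells (27.5%). Stat5a, which these receptors activate, rose by 2.18 in wild type and by 0.48 in knockout cells, and Stat5b by 1.34 and 0.35. Stat3 rose by 0.33 in wild type and gave 0.02 in knockout cells.

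Of 13 STAT5 target and feedback genes, 9 rose and 3 fell in wild-type cells, 9 rose and 1 fell in knockout cells (27.5% and 14.7% of all genes), and 2 were higher and 1 lower in knockout cells without IL-4 (4.73% and 6.96%). Their median changes with IL-4 were 0.86 in wild type and 0.37 in knockout cells. Cish and Socs2, inhibitors of STAT5 signalling, rose by 6.99 and 5.96 in wild type and by 0.64 and 0.37 in knockout cells. Socs3 and Socs1, of the same family, rose by 2.64 and 2.09 in wild type, and in knockout cells Socs1 rose by 0.56 while Socs3 gave 0.05. Pim1, a survival kinase, rose by 1.56 in wild type. Bcl2l1, a survival factor, and Ccnd2, cyclin D2, rose by 0.93 and 0.69 in knockout cells. Several of these genes are also known to respond to IL-4 itself.

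Of 8 transcription factors with a known role at receptor chain genes, 6 rose and 1 fell in wild-type cells. The shares of all genes there were 26.4% and 30.8%. In knockout cells 5 rose and 1 fell (27.5% and 14.7% of all genes). Cebpb rose by 2.24 in wild type and by 1.29 in knockout cells. Pou2f2 encodes Oct-2, a factor known to be needed for Il5ra expression in mouse B cells. Its transcript fell by 1.48 in wild type and gave 0.13 in knockout cells. The part of Oct-2 in the Il5ra levels was not tested. Runx1, Spi1, which encodes PU.1, and Pou2af1, the coactivator of Oct-2, rose by 0.71, 0.58 and 0.49 in wild type, and in knockout cells Spi1 and Tcf3 rose by 0.31 and 0.28. Without IL-4 only Tcf3, an E protein, was called, with a difference of -0.30 between knockout and wild type.

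Of 6 antibody-secretion genes known to be raised by IL-5 in B cells, 4 rose and 2 fell with IL-4 in wild-type cells. In knockout cells 1 rose and 4 fell. The shares of all genes were 26.4% and 30.8% in wild type, and 27.5% and 14.7% in knockout cells. Igj, the joining chain of secreted IgM and IgA, fell by 5.82 in wild type and by 3.44 in knockout cells, and Prdm1, the regulator of plasma cell differentiation, by 2.81 and 1.69. Xbp1, a regulator of secretory capacity, rose by 0.87 in wild type and fell by 0.90 in knockout cells. Irf4 rose by 0.29 and 0.23. Sdc1, the plasma cell surface protein CD138, rose by 0.76 in wild type and gave 0.10 in knockout cells.

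Other cytokine receptor chains numbered 21 tested, of which 11 rose with IL-4 in wild type, 6 fell there, and 4 rose and 7 fell in knockout cells (27.5% and 14.7% of all genes). Il4ra rose by 2.93 in wild type and gave -0.24 in knockout cells, Il7r rose by 1.21 in wild type, and Il2rb rose by 1.02 in wild type and fell by 0.67 in knockout cells. Il9r fell by 2.10 and 0.97, and Prlr, the prolactin receptor, by 1.70 in wild type. Epor, the erythropoietin receptor, fell by 1.09 ± 0.38 in knockout cells.

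**Figure D4:**
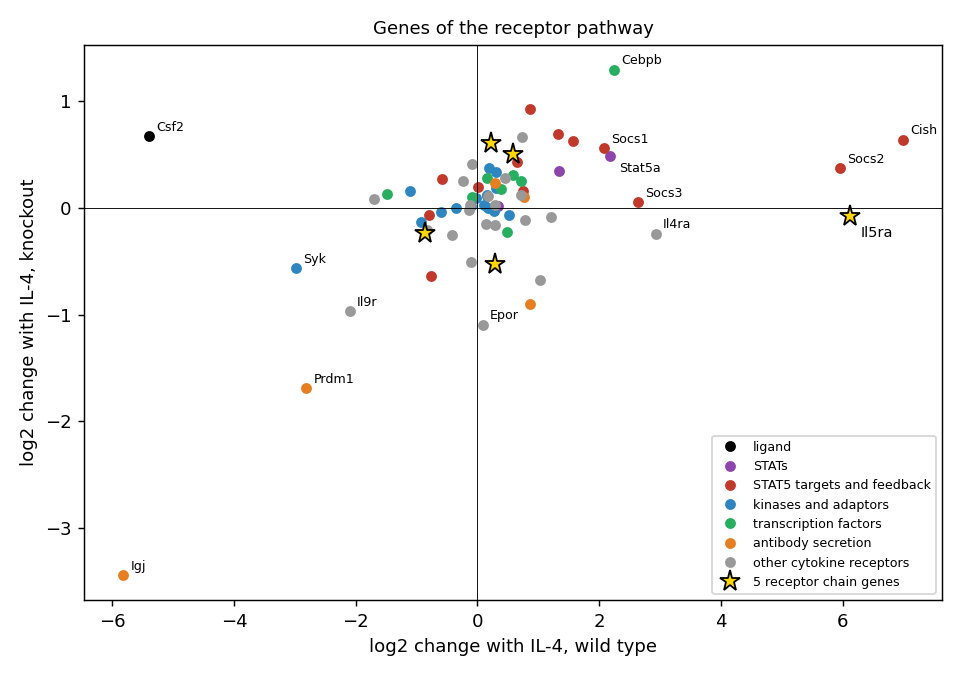
Fitted log2 change with IL-4 in wild-type (x) and knockout cells (y) for tested genes of the pathway lists that are reported here (points, coloured by list) and for probe 1 of the 5 receptor chain genes (stars). Il5ra lies at 6.12 and -0.07 beside Cish (6.99 and 0.64) and Socs2 (5.96 and 0.37); the wild-type position of Csf2 is a fitted value for a signal at background.

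Several defining markers of eosinophils, basophils and mast cells were well above background on no array. Of 9 eosinophil markers on the array, 6 were well above background on no array, among them Epx, Ear2 and Ccr3, and Prg2 alone was on all 12. Their summed relative signal was 2.38 to 2.63 in wild-type controls, 0.340 to 0.653 in wild-type cells with IL-4, 1.03 to 1.98 in knockout controls and 0.342 to 0.388 in knockout cells with IL-4. Of 9 basophil and mast cell markers, 5 were on no array, among them Mcpt8 and Fcer1a, while Kit was on 9 and Hdc on 10, and the sum was 0.750 to 0.870, 0.307 to 0.479, 0.711 to 1.47 and 0.517 to 0.737. Both sums were lower in the wild-type IL-4 arrays, which had the high Il5ra signal, than in wild-type controls. Most markers of both lists were well above background on few or no arrays, so these sums say little about cell content. Without Prg2 the eosinophil sum was 0.475 to 0.554 in wild-type controls and 0.157 to 0.484 with IL-4, and without Kit the basophil and mast cell sum was 0.422 to 0.503 and 0.290 to 0.460, so both then overlapped.

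The summed signal of 11 macrophage and monocyte markers was 21.1 to 21.9 in the wild-type IL-4 arrays and 56.2 to 61.7 in the other groups, and without Mpeg1, its member with the largest difference in signal, 18.8 to 19.6 and 30.3 to 37.5. That of 12 T cell markers was 142 to 150 in the wild-type IL-4 arrays and 38.1 to 48.8 elsewhere, but a single member made the difference. Thy1 rose at least 1530-fold over wild-type controls. The other 11 markers summed to 36.0 to 37.5 in the wild-type IL-4 arrays and 37.9 to 48.7 elsewhere. Of the 12 markers, 8 were well above background on all 12 arrays, among them Cd3d, Cd3e, Cd3g, Cd4 and Lck. Cd8a and Cd8b1 were on no array. Likewise the sum of 11 NK and innate lymphoid markers was 9.63 to 11.4 in the wild-type IL-4 arrays and 5.88 to 7.82 elsewhere, and without Gzma 5.17 to 5.56 and 5.86 to 7.80.

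In the order wild-type control, wild type with IL-4, knockout control and knockout with IL-4, B-1 cell markers summed to 11.5 to 11.9, 8.80 to 8.86, 9.83 to 10.99 and 7.43 to 8.06. Without Cd5 the wild-type ranges were 7.89 to 7.96 and 7.998 to 8.02. Plasma cell markers summed to 197 to 205, 183 to 188, 162 to 217 and 59.5 to 63.5, and without Igj, which is also in the antibody-secretion list, the wild-type ranges were 114 to 119 and 181 to 187. Neutrophil markers summed to 66.7 to 81.4, 82.3 to 98.6, 86.0 to 89.1 and 70.0 to 88.5, nearly all of it from Csf3r, without which the arrays lay between 0.420 and 0.757. Dendritic cell markers summed to 288 to 317, 283 to 287, 309 to 337 and 293 to 352, and without Ccr7 the wild-type ranges were 113 to 137 and 134 to 142. The part of these marker lists in the levels of the receptor chains was not tested.

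The genes whose levels were most like Il5ra over the 12 arrays, by Pearson's r, were Gnb4 (0.999), Galk2, Cpox, Serpina3g, Slc30a4 and Slc37a2 (0.998), a ranking set by the wild-type IL-4 arrays against the rest. Gnb4, a G protein beta subunit, differed by 4.79 with IL-4 in wild-type and -0.14 in knockout cells on the log2 scale. For Csf2rb they were P2ry13 (0.990), Cyp4f18 (0.989), Tbc1d14, Acaa2, Nudt19 and Arhgap39 (0.986). All points share the 4 groups, and r is given as a measure of likeness alone.

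Genes near the receptor chain genes moved in both directions. On mm9, the probes of Trnt1, a tRNA-processing enzyme, and Crbn, cereblon, lie 71.7 and 68.6 kb from that of Il5ra. In wild-type cells they rose by 1.45 and 0.90 on the log2 scale (limma, adjusted p = 1.61e-07 and 5.70e-06), and in knockout cells by 0.37 and 0.26 (adjusted p = 0.00515 and 0.0272). Near the beta chain genes, Ncf4, a subunit of the phagocyte oxidase, 20.3 kb from Csf2rb2, fell by 0.70 in wild type and by 0.54 in knockout cells. In the same region C1qtnf6 rose by 2.76 and Kctd17 by 0.78 in wild type, whereas Rac2 and Ift27 fell by 0.49 and 0.60. Grk5, a receptor kinase gene 132 kb from Csf2ra, fell by 0.77 in wild type and rose by 0.42 in knockout cells. Near Il3ra, Psmd6 and Atxn7 gave -0.24 and -0.15 in wild type, neither past the test.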

How the data were processed

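RNA from 12 cultures was hybridised to Agilent 1-colour arrays. The authors' scanner software was Agilent Feature Extraction, version 10.7.3.1 per the file headers, which wrote a processed intensity per spot after subtracting the background. The authors also deposited a table with 1 quantile-normalised log2 value per gene and array, used here as an alternative. From these, log2 intensities were computed and centred on each array's 75th percentile over non-control spots (296 to 356 before log2). Between 122 and 196 flagged outlier spots per array were left out. Spots of a probe were averaged.

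The filter kept 22940 probes, those well above background throughout 1 or more groups of 3 arrays. A gene was represented by its brightest kept probe, which left 16497 genes to test. One limma model (limma 3.58.1 under R 4.3.3; jsonlite 2.0.0 and release 1.17.8 of data.table read the files) took the 4 group means of all 12 arrays, with Benjamini-Hochberg adjustment over all genes and a threshold of 0.05 at any size of change. Rose and fell mean past that threshold. Adjusted p over probes comes from the same fit on all kept probes. A gene not well above background in the dimmer group is given as a bound. Probe positions are on mm9, and promoters are RefSeq sequences on GRCm38.p6. Python 3.11.15 with pandas 2.3.3 and matplotlib 3.10.9 made the figures.

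The members and all gene and marker lists were chosen with earlier results of these data known. The genes named are the 5 members, Stat6, all tested ligand, STAT and antibody-secretion genes, from each other list up to 5 called genes with the largest wild-type change and up to 3 with the largest knockout change, the 6 genes most like Il5ra and Csf2rb, and neighbours within 250 kb. Some genes outside that rule (Jak2, the lower-ranked examples and the markers) were chosen after their values were seen. Marker sums are also given without the member whose signal differed most between the wild-type groups, a step added after the data were seen. Most same-numbered arrays of different groups did not deviate together (r = -0.24 to 0.39, above 0.1 in 2 of 18 pairs). Those 2 pairs were knockout control and knockout IL-4 arrays 1 (0.32) and 3 (0.39), both within the tested IL-4 response. Between differently numbered arrays of different groups r was -0.47 to 0.31, above 0.1 in 7 of 36 pairs. Replicate numbers were not used as pairs in the main fit, and a replicate block is among the alternatives. Some genes that this rule names are not reported here. The scripts were tested on simulated data. Alternatives covered scaling, background correction, the filter, probe choice, slide and replicate blocks, the variance setting and each array left out.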

Additional observations from a re-analysis of the deposited data

Results flagged for a closer look

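For Csf2rb2 by probe 1, the IL-4 response of wild-type cells minus that of knockout cells was 0.81 on the log2 scale. The 3 wild-type IL-4 arrays were above all wild-type controls, and the 3 knockout IL-4 arrays were below all knockout controls, so the directions were opposite. The difference was not tested, because the wild-type response helped to choose the gene. Probe 2 of the same gene gave -0.70 in wild type and -0.24 in knockout cells, a difference of -0.46, and with the probes averaged the difference was 0.17.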

How the results depend on the processing

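No result changed sign where it was called, and the replicate block alone changed no call of the 5 genes (in knockout cells Csf2rb stayed at -0.23, adjusted p = 0.0338) and gave 6723 genes called there and 1639 between the genotypes without IL-4. The Csf2rb change in knockout cells was -0.23 without the filter (adjusted p = 0.101), -0.17 with kept probes averaged (0.0942), -0.23 with only the compared arrays (0.0888), -0.080 with median scaling (0.532), -0.10 with slide as a block and -0.13 with both blocks (0.404), and -0.30 to -0.16 with an array left out. Csf2rb2 there was -0.47 with both blocks (0.0925). Without IL-4, Csf2ra was -0.57 without the filter (0.0962), -0.48 with the slide block, -0.53 with both blocks (0.0993) and -0.70 to -0.48 with an array left out. Il3ra was -0.54 without the filter (0.0932) and with only the compared arrays (0.0668), -0.43 with the slide block, -0.47 with both blocks (0.0779) and -0.68 to -0.43 with an array left out. Il5ra was -0.45 with median scaling and -0.30 to -0.20 with an array left out.

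The wild-type change of Il5ra was 5.95 and 5.96 with normexp correction. Its difference between genotypes with IL-4 was -6.24 and -6.25 with normexp, -6.30 in the authors' deposited table and -6.27 with the slide block. Its difference between responses was 6.06 with median scaling, 6.02 and 6.04 with normexp, 6.05 in the authors' deposited table and 6.06 with the slide block. Genes called between the genotypes without IL-4, 1929 in the report, numbered 5569 with median scaling, 271 without the filter, 905 with only the compared arrays, 417 with the slide block, 249 with both blocks and 384 to 3727 with an array left out. With both blocks, 3312 genes were called for IL-4 in knockout cells, against 6969. Between genotypes with IL-4, 5273 were called with the slide block and 3497 with both, against 8431. With median scaling, higher genes made up 82.2% of calls against 65.1% in knockout cells with IL-4 (55.6% with quantile scaling), 8.37% against 40.4% between the genotypes without IL-4 and 26.5% against 36.7% for the difference between responses, and the median of all genes between the genotypes without IL-4 was -0.22 against -0.04. The cause of these shifts was not tested. Probe 2 of each beta chain gene was within a few times the lowest signal well above background, which limits what these probes can show.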
